A study of Mus musculus with 10 samples.

Results

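The comparison described here set knockdown of Ino80b against knockdown of Ino80e in mouse J1 cells, a line of embryonic stem cells (ESCs). Its members are the 2 arrays labelled Ino80b siRNA and the 2 labelled Ino80e siRNA, 4 of the 10 arrays of the series, chosen by their titles and by no measured value. All 10 samples were J1 cells maintained in ESGRO medium, moved to M15 medium for transfection with a small interfering RNA (siRNA), and harvested at 96 hours (day 4). The other groups received a non-targeting siRNA (NT, the control), Ino80 siRNA or Ino80c siRNA, with 2 arrays each. The design text calls the 2 samples of a group biological replicates. J1 is 1 line, the labels do not say how many siRNA sequences stand behind each name, and an siRNA lowers a transcript without removing the gene.

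INO80 is a chromatin remodeller: a large complex built around the ATPase Ino80 that slides nucleosomes and exchanges histones at promoters, enhancers and replication forks. Ino80b and Ino80e are accessory subunits of the mammalian complex, as is Ino80c. In ESCs the complex is known for its presence at promoters of pluripotency genes, next to the factor Yy1, one of its subunits. Comparing the 2 accessory knockdowns asks whether loss of one subunit's transcript was followed by a different expression profile from loss of the other.

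Each array carried 1 sample, read as green intensity, and levels are given as log2 signal relative to the array's 75th percentile. A level of 0 is thus the signal that 1 in 4 probes exceeded on that array. Differences are Ino80b minus Ino80e on this log2 scale, so 1 is 2-fold and a negative value is lower with Ino80b siRNA. Probes of different genes bind differently, so levels were compared only between arrays and not between genes. The 10 arrays had 66.4% to 79.0% of probes well above background, no saturated spot, and Pearson correlations between the 2 arrays of a group of 0.987 to 0.993. The number of arrays limits the precision. Both Ino80b arrays lay on one slide (with the Ino80 arrays) and both Ino80e arrays on another (with the Ino80c arrays), so knockdown and slide cannot be told apart in this comparison. For that reason values for Ino80 against Ino80c, the other pair of knockdowns on the same 2 slides, are given further on for the called genes as sets and for several named genes.

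Each targeted transcript was low with its own siRNA. The Ino80b transcript stood at -3.05 and -3.52 on the Ino80b arrays, against -1.40 and -1.17 on the NT arrays, which is 24.9% of the NT level (log2 difference -2.0 ± 0.35 SE, n = 2 against 2, adjusted p = 0.0271 by limma). The Ino80e transcript stood at 3.64 and 3.41 on the Ino80e arrays, against 5.02 and 4.43 with NT, which is 43.4% of the NT level (-1.20 ± 0.28, adjusted p = 0.0800, not passing 0.05). In both cases the knockdown arrays lay below both NT arrays.

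The probe that measures Ino80b is shown because the check of the Ino80b label rests on it. It is annotated by the array to mm7 chr6:83149452-83149511, minus strand, and 1 of its 3 forward reading frames is free of stop codons; whether it lies in an exon or a UTR was not looked up, because no annotation of that build was used here.
Ino80b probe: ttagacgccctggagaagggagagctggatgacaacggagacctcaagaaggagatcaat

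The Ino80b transcript was also low with Ino80e siRNA. It stood at -2.44 and -2.90 on the Ino80e arrays, 38.2% of the NT level (-1.39 ± 0.35, adjusted p = 0.0868), and at -2.41 and -2.37 on the Ino80c arrays, while the Ino80 arrays had -1.51 and -0.46. The Ino80b and Ino80e arrays therefore did not overlap, but the Ino80b transcript differed between them by only -0.61 ± 0.35 (95% interval -1.43 to 0.20, adjusted p = 0.470). The Ino80e transcript stood at 5.15 and 4.99 on the Ino80b arrays, above both Ino80e arrays, a difference of 1.55 ± 0.28 (95% interval 0.90 to 2.19) whose adjusted p of 0.0645 missed the threshold. With other background corrections or estimates of the spread this difference passed, as given in the closing section.

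**Figure D1:**
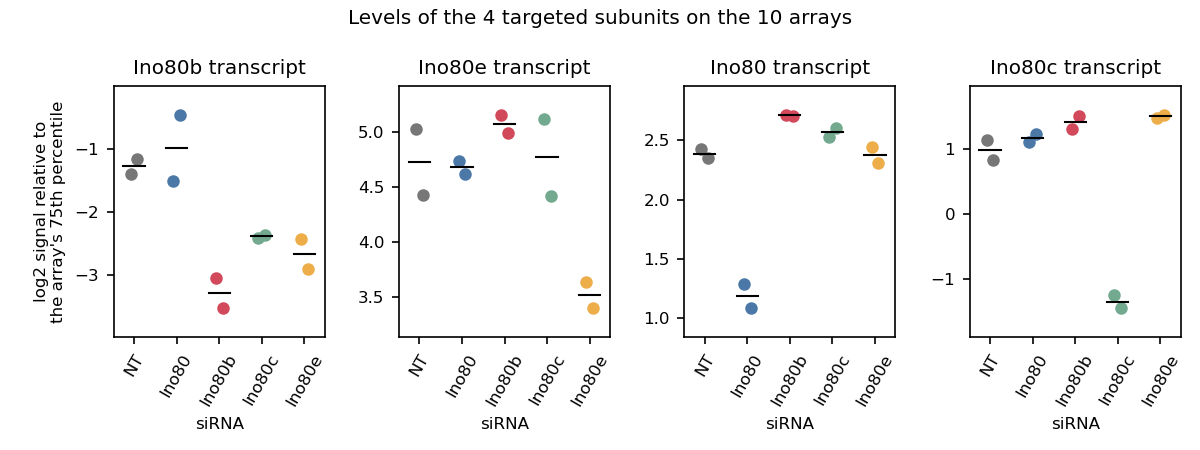
Levels of the 4 targeted transcripts (log2 signal relative to the array's 75th percentile) on each of the 10 arrays, by siRNA; points are arrays and bars are the mean of 2 arrays. The Ino80b transcript is lowest with Ino80b siRNA (-3.05 and -3.52) and also low with Ino80e siRNA (-2.44 and -2.90), whereas the Ino80e transcript is low with Ino80e siRNA alone (3.64 and 3.41).

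No gene of the INO80 complex was called. Ino80, the ATPase, stood at 2.71 on both Ino80b arrays and at 2.44 and 2.31 on the Ino80e arrays (0.33 ± 0.13, adjusted p = 0.293). Its 3 retained probes gave 0.33, 0.87 and 1.10, and their mean 0.77 was not called either. Ino80c differed by -0.09 ± 0.16 (adjusted p = 0.842). Of 15 genes of the complex tested, 8 lay above 0 and 7 below, with a median of 0.03. The actin-related subunits Actr5 (0.15), Actr8 (-0.06) and Actl6a (-0.14), the helicases Ruvbl1 (-0.02) and Ruvbl2 (-0.04), the deubiquitinase Uchl5 (-0.13), its partner Nfrkb (0.25), Mcrs1 (0.24), Tfpt (0.03) and Yy1 (0.10) all differed by less than 0.30 on the log2 scale. Actb was counted from a probe that the array places on mm7 chromosome X, and no value is read from it. For Uchl5 the 95% interval ran from -0.49 to 0.23 and for Nfrkb from -0.15 to 0.65, so differences of up to about those sizes are not excluded by these arrays.

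Across 19949 genes tested, 141 (0.707%) were called at an adjusted p under 0.05, by limma with Benjamini-Hochberg adjustment. Of these, 51 (0.256%) were higher with Ino80b siRNA and 90 (0.451%) lower. At least a 2-fold difference was seen for 118 (0.592%): 38 of the higher genes and 80 of the lower. Differences of at least 4-fold were seen for 5 higher and 21 lower genes. The median over all genes was -0.06. The share of called genes that were higher was 36.2%, whereas the authors' deposited table gave 48.3% and quantile normalization 46.7%.

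All 141 called genes had arrays that did not overlap between the groups, as did 53.4% of all genes. Without Ino80b replicate 1, Ino80e replicate 1 or Ino80e replicate 2 no gene was called, without Ino80b replicate 2 there were 2, and a fit on the 4 arrays alone called 0 (3588 genes at an unadjusted p under 0.05). The calls therefore rest on both arrays of each group and on a spread estimated over all 5 groups.

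**Figure D2:**
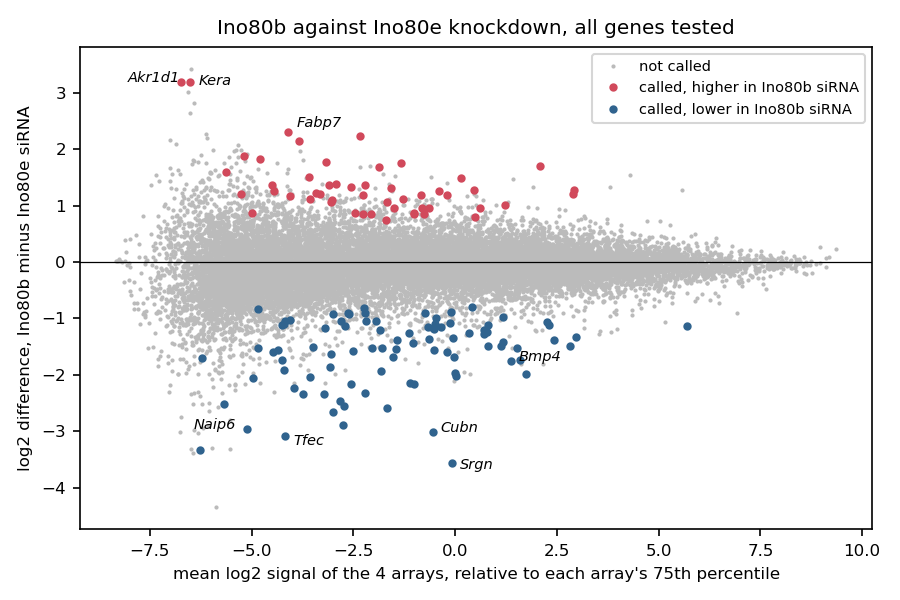
Log2 difference between Ino80b and Ino80e siRNA (vertical axis) against the mean log2 signal of the 4 arrays (horizontal axis) for the 19949 genes tested; red points are the 51 genes called higher and blue points the 90 called lower with Ino80b siRNA. The lower genes reach -3.56 (Srgn) at middle signal. The largest measured rises among called genes (Akr1d1 and Kera, 3.20 each) lie at the dim end, where no size is read.

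Each knockdown was also set against NT. With Ino80b siRNA 1346 genes were called (6.75%; 797 or 4% higher, 549 or 2.75% lower), and with Ino80e siRNA 0 were called by limma, with a smallest adjusted p of 0.0511. At an unadjusted p under 0.05 the counts were close, 5913 genes for Ino80b and 5749 for Ino80e, and the difference between the counts of calls was not itself tested. Both counts share the 2 NT arrays, which lay on a slide of their own. Of the 90 genes lower in Ino80b than in Ino80e, 79 were also called lower in Ino80b than in NT and 0 were called in Ino80e against NT; their median was -1.34 against NT with Ino80b siRNA and 0.20 with Ino80e siRNA. The 51 higher genes had a median of 1.14 against NT with Ino80b siRNA (46 called higher) and of -0.11 with Ino80e siRNA (0 called). The Ino80e mean was nearer to the NT mean than the Ino80b mean was for 83 of the 90 lower genes (92.2%), for 49 of the 51 higher genes (96.1%) and for 49.3% of all genes. Both sets were chosen by values on these same Ino80b and Ino80e arrays, so their counts and medians against NT are not separate support. That 0 of them were called with Ino80e siRNA follows from the 0 calls over all genes.

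The 26 gene lists were chosen with earlier results of these data known, so their shares of called genes are descriptions and not tests. Genes of the primitive and definitive endoderm held more called falls than any other list. Primitive endoderm is the extra-embryonic lineage that forms beside the epiblast in the blastocyst, and ESC cultures hold a small share of cells that express its genes. Of 25 tested members of this list, 7 (28.0%) were called lower with Ino80b siRNA, where 0.451% of all genes were, and 0 were called higher. In sign, 17 lay below 0, as did 57.3% of all genes, and 8 lay above 0. The arrays did not overlap for 15 of those below and 4 of those above, where they did not for 53.4% of all genes. The list's median was -0.55 against -0.06 for all genes. In this bulk RNA, fewer cells that express these genes and less RNA per cell cannot be told apart.

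Gata6, the transcription factor that directs cells into primitive endoderm, differed by -2.15 ± 0.19 (adjusted p = 0.0113), and the Sox-family factor Sox7 stood at -4.04 and -3.98 on the Ino80b arrays against -1.62 and -1.31 on the Ino80e arrays (-2.55 ± 0.25, adjusted p = 0.0116), where a second Sox7 probe gave -1.14. The receptor Pdgfra, used as a marker of the lineage, stood at -4.68 and -5.12 with Ino80b siRNA, at -2.75 and -2.39 with Ino80e siRNA, and at -2.97 and -3.27 with NT, a difference of -2.33 ± 0.20 (adjusted p = 0.0113). For Sox7 and Pdgfra the Ino80b arrays lay below all NT and Ino80e arrays.

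Cubn, the endocytic receptor cubilin of visceral endoderm, stood at -2.10 and -2.03 with Ino80b siRNA, at 0.82 and 1.10 with Ino80e siRNA, and at 0.14 and -0.76 with NT, an 8.11-fold difference (-3.02 ± 0.29, adjusted p = 0.0116). Both Ino80e arrays lay above both NT arrays and both Ino80b arrays below them. Amn, the partner that anchors cubilin in the membrane, fell with it (-1.09 ± 0.16, adjusted p = 0.0426), as did the endocytic adaptor Dab2 (-1.59 ± 0.17, adjusted p = 0.0142).

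Srgn, the core protein of a granule proteoglycan, had the largest difference of the named genes. Its arrays stood at -2.39 and -1.34 with Ino80b siRNA, at 1.38 and 2.01 with Ino80e siRNA and at 0.79 and 0.58 with NT, which made Ino80e 11.8-fold higher than Ino80b (-3.56 ± 0.52, 95% interval -4.77 to -2.35, adjusted p = 0.0371). The other members of the list were not called. Sox17 had -1.50 ± 0.26 (adjusted p = 0.0639) and Gata4 -0.61 ± 0.23 (adjusted p = 0.287), while Foxa2, an endoderm factor, had the highest value of the list, 1.00 ± 0.32 (adjusted p = 0.227).

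Over 6 marker genes of primitive endoderm (Gata4, Gata6, Sox17, Sox7, Dab2 and Pdgfra), all of them well above background in each group, the summed linear level was 0.985 to 0.996 on the Ino80b arrays, 3.16 to 3.79 on the Ino80e arrays and 2.50 to 2.85 on the NT arrays. Over 10 ESC markers, Pou5f1 and Nanog among them, all were well above background on every one of these arrays; their summed level was 188 to 218 with Ino80b siRNA, 284 to 324 with Ino80e siRNA and 279 to 309 with NT, and none was called. Of 10 fibroblast feeder markers, 8 were well above background on both Ino80b arrays and 7 on both Ino80e arrays. Lum and Postn were well above background on no Ino80b or Ino80e array. The summed level of the 9 tested feeder markers was 2.23 to 2.49 with Ino80b siRNA, 2.32 to 2.57 with Ino80e siRNA and 2.00 to 2.21 with NT, and none was called.

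Of the remaining large falls, several encode transporters and epithelial proteins. Aqp8, a water channel, stood at -3.43 and -2.51 with Ino80b siRNA against -0.62 and -0.16 with Ino80e siRNA (-2.58 ± 0.30, adjusted p = 0.0188). Slc11a1, a divalent metal transporter of phagosomes, stood at -4.44 and -3.96 against -1.47 and -1.16 (-2.88 ± 0.28, adjusted p = 0.0116), with NT arrays at -0.87 and -0.36. The Slc11a1 level was also low on both Ino80 arrays (-4.29 and -4.08) and both Ino80c arrays (-4.18 and -3.57), so Ino80e siRNA was the only knockdown near NT.

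Cyp4f14, a cytochrome P450 that hydroxylates fatty acids, had -4.41 and -4.27 with Ino80b siRNA, -1.80 and -1.57 with Ino80e siRNA and -2.11 and -2.54 with NT (-2.66 ± 0.18, adjusted p = 0.00778). Pdzd3, a PDZ-domain scaffold of epithelia, fell 5.07-fold (-2.34 ± 0.18, adjusted p = 0.00778), and Tfec, a transcription factor of the Mitf family, fell 8.50-fold (-3.09 ± 0.31, adjusted p = 0.0116) by its brightest probe, where a second gave -1.04. Tfec was well above background on only 1 of the 2 Ino80b arrays, so its fold rests partly on dim signal. The calcium-binding protein S100g was not well above background on either Ino80b array. In the processed signal it was at least 2.97-fold lower there (measured difference -2.51, adjusted p = 0.0113). Bounds of this kind hold for the processed signal alone, and other background treatments gave smaller differences, as listed further on.

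Klb, the co-receptor for FGF21, fell 5.54-fold by its brightest probe (-2.47 ± 0.22, adjusted p = 0.0113), but a second probe of the gene gave 0.01. Naip6, of the Naip family of inflammasome sensors, was the exception among the 12 largest falls. It was not well above background with NT or Ino80b siRNA and stood at -3.73 and -3.57 with Ino80e siRNA, at least 5.09-fold higher than with Ino80b siRNA (measured difference -2.96, adjusted p = 0.0344). Of the NT, Ino80b and Ino80e groups, only Ino80e, where the signal is high, could bring its probe into the test. Its adjusted p-value is therefore not read as support for a difference. Against NT, Ino80e siRNA differed by 3.55 (adjusted p = 0.0626, not passing) and Ino80b siRNA by 0.60 (0.376), and Naip genes are near-identical copies that a 60-base probe may not separate.

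Among the rises, 2 of the largest concerned genes that were low in every other group. Akr1d1, a steroid 5-beta reductase of liver, stood at -4.78 and -5.48 with Ino80b siRNA, and between -8.81 and -8.13 on the other 8 arrays. It was not well above background with NT or Ino80e siRNA. In the processed signal it was thus at least 1.87-fold higher with Ino80b siRNA (measured difference 3.20 ± 0.24, adjusted p = 0.00778). Kera, the corneal proteoglycan keratocan, stood at -5.27 and -4.54 with Ino80b siRNA and between -8.63 and -7.10 elsewhere. In the same signal it was at least 2.18-fold higher than with Ino80e siRNA (measured difference 3.20 ± 0.28, adjusted p = 0.0113). The probes of Akr1d1 and Kera entered the test only because they were well above background on the Ino80b arrays. Their adjusted p-values are therefore not read as support for a difference.

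Fabp7, the fatty acid binding protein of radial glia, stood at -3.03 and -2.86 with Ino80b siRNA, at -5.03 and -5.47 with Ino80e siRNA, and at -4.73 and -5.54 with NT, a 4.94-fold difference (2.30 ± 0.28, adjusted p = 0.0222). It was the called member among 26 tested neuroectoderm genes (3.85%, where 0.256% of all genes were called higher), whose median was 0.03. Kynu, kynureninase of tryptophan breakdown, had -2.88 and -2.67 against -5.02 and -4.82 (2.15 ± 0.22, adjusted p = 0.0142). For both genes the Ino80c arrays lay close to the Ino80b arrays: -3.28 and -3.10 for Fabp7 and -2.71 and -2.88 for Kynu.

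Itpr2, an inositol trisphosphate receptor that releases calcium from the endoplasmic reticulum, stood at -1.21 and -1.24 with Ino80b siRNA against -3.54 and -3.38 with Ino80e siRNA (2.23 ± 0.16, adjusted p = 0.00778). Its 4 retained probes disagreed by position. The gene is on the minus strand, and the 2 probes with the lowest mm7 positions on chromosome 6 (starting at 146189827 and 146190011) gave 2.23 and 1.48, whereas those starting at 146369880 and 146449694, toward the other end, gave -0.99 and -0.32. The rise therefore holds for the first pair of probes and not for the gene as a whole.

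The remaining large rises were cell-surface, nuclear and enzyme genes. Nrcam, a neuronal adhesion molecule, had -0.73 and -0.15 with Ino80b siRNA against -2.22 and -2.18 (1.76 ± 0.21, adjusted p = 0.0201; a second probe gave 0.99), and the protocadherin Pcdh18 had -2.26 and -2.32 against -3.83 and -4.29 (1.77 ± 0.19, adjusted p = 0.0157). Zfpm2, a cofactor of GATA factors, was not well above background with Ino80e siRNA. In the processed signal it was at least 3.43-fold higher with Ino80b siRNA (measured 1.88, adjusted p = 0.0116). Arsj, an arylsulfatase, was at least 2.29-fold higher on the same ground. Mettl24, Btbd17 and the interferon-inducible GTPase Irgm1 were 3.55-fold, 3.21-fold and 2.81-fold higher. Mettl24 was well above background on only 1 of the 2 Ino80e arrays, so its fold rests partly on dim signal.

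The sizes of these differences depended on how background was treated. Of the 37 named genes that were called, 22 had a log2 difference more than 1.5 times smaller when background was corrected with normexp, and 20 in the authors' deposited table; none was that much larger in either. In normexp and the authors' table, in that order, Tfec had -1.39 and -1.39, Sox7 -1.58 and -1.57, Slc11a1 -1.82 and -1.82, Pdgfra -1.16 and -1.13 and Cyp4f14 -1.51 and -1.52, and all 5 of these falls stayed called. Among the rises, Akr1d1 had 0.28 and 0.56, Kera 0.32 and 0.53, Zfpm2 0.30 and 0.54, Mettl24 0.38 and 0.63, and Arsj 0.11 and 0.37. With normexp none of those 5 rises was called (adjusted p 0.186 to 0.643), and in the authors' table Kera and Arsj were not (0.0574 and 0.114). Fabp7 (0.87 and 1.05), Kynu (0.85 and 1.09) and Pcdh18 (0.85 and 1.04) stayed called at smaller sizes. S100g had -0.61 and -0.51, the second not called (0.0583), and Naip6 had -1.01 and -0.87, both called. These Naip6 calls used the same probe filter and are not read as support either. For Akr1d1, Kera, Zfpm2, Arsj, S100g and Naip6 both values are smaller than the fold given above as a bound. Those bounds therefore hold for the processed signal and not across background treatments.

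The probe rule mattered for a few genes. With the mean over a gene's probes, Itpr2 (0.60), Klb (-1.23), Nrcam (1.37), Sox7 (-1.85) and Fgfr2 (0.83) were no longer called, at adjusted p of 0.0531 to 0.387.

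**Figure D3:**
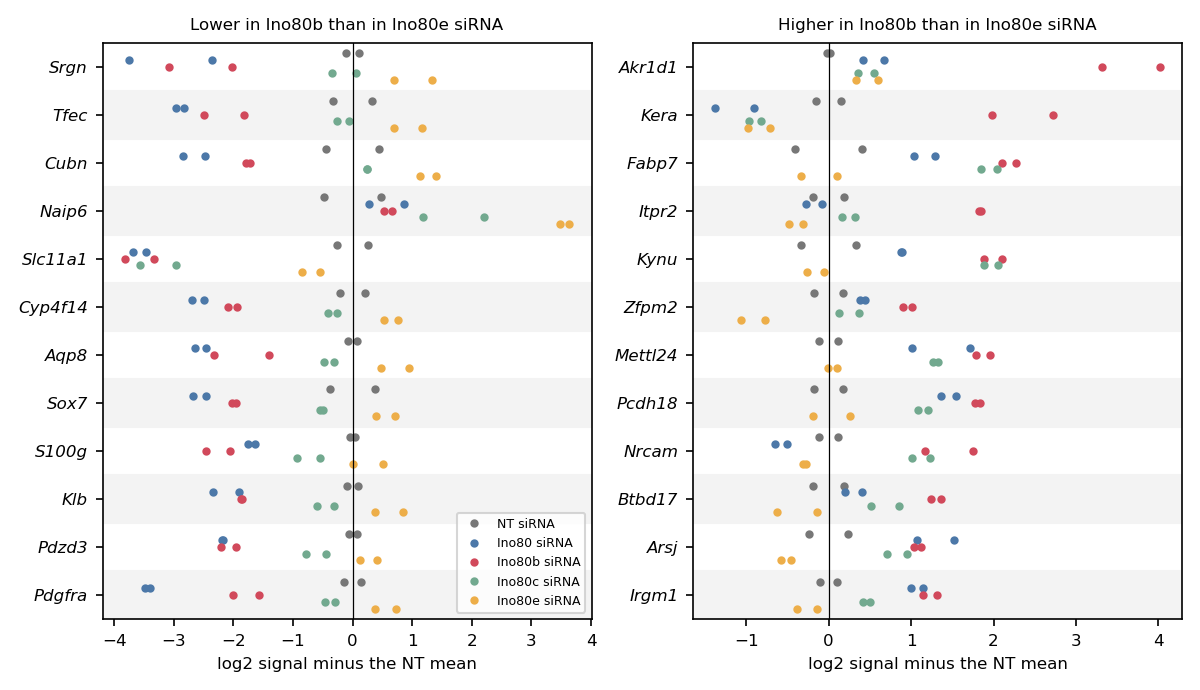
Levels of the 12 genes with the largest falls (left) and the 12 with the largest rises (right) on all 10 arrays, as log2 signal minus the mean of the 2 NT arrays; each point is 1 array, coloured by siRNA. Ino80e arrays lie near or above NT for most falls (Cubn: 0.82 and 1.10 against 0.14 and -0.76 in level), Ino80 arrays lie with the Ino80b arrays for most falls, and Naip6 departs from NT with Ino80e siRNA rather than Ino80b siRNA.

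Genes of naive pluripotency, the state of ESCs kept in self-renewal, leaned lower with Ino80b siRNA but were mostly not called. Of 39 tested, 2 were called lower (5.13%, where 0.451% of all genes were), 29 lay below 0, as did 57.3% of all genes, and the median was -0.23. Tfcp2l1, a factor of the naive network, stood at 2.01 and 2.12 with Ino80b siRNA, 3.45 and 3.68 with Ino80e siRNA and 3.62 and 3.43 with NT (-1.50 ± 0.23, adjusted p = 0.0467). Tet2, which oxidises methylated cytosine, had -1.53 ± 0.17 (adjusted p = 0.0157), where a second probe gave -0.78. The values of Tbx3 (-1.81, adjusted p = 0.0644), Esrrb (-1.19, 0.120), Klf4 (-1.06, 0.0726) and Nanog (-0.96, 0.0975) missed the threshold, and Pou5f1 (-0.23) and Sox2 (-0.21) were near the median of the list.

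Primed epiblast genes, which mark the step after the naive state, lay mostly above 0. Of 21 tested, 18 were above 0, as were 42.7% of all genes, 1 was called higher (4.76%, where 0.256% of all genes were), and the median was 0.44. The called member was Sall2, a zinc finger factor (1.02 ± 0.13, adjusted p = 0.0282), at 1.77 and 1.69 with Ino80b siRNA against 0.83 and 0.60 with Ino80e siRNA and 0.83 and 0.64 with NT. Pou3f1 (1.27, adjusted p = 0.0593), Otx2 (0.73, 0.0636) and Wnt8a (1.68, 0.0644) had values just short of a call. The 11 tested genes of the two-cell-like state had a median of 0.67 and none was called (Zfp352: 1.12 ± 0.31, adjusted p = 0.173).

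Other lists held at most 3 called genes each, where 0.707% of all genes were called. In the mesoderm and BMP lists the called gene was Bmp4, the growth factor that patterns mesoderm and supports ESC self-renewal: it stood at 0.51 and 0.47 with Ino80b siRNA, 2.20 and 2.29 with Ino80e siRNA and 2.54 and 2.96 with NT (-1.76 ± 0.17, adjusted p = 0.0116). Its level was also low on the Ino80 arrays (0.20 and -0.05) and Ino80c arrays (0.44 and 0.27). Of 32 trophectoderm and epithelium genes, 9.38% were called, where 0.707% of all genes were. The connexin Gjb5 (-1.68 ± 0.14, adjusted p = 0.0113) and galectin Lgals3 (-1.34 ± 0.18, adjusted p = 0.0282) were lower, while the FGF receptor Fgfr2 (0.86 ± 0.13, adjusted p = 0.0451) was higher.

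Smarcd3, a subunit of the BAF remodelling complex, was lower (-1.15 ± 0.17, adjusted p = 0.0370). It was the 1 called gene of 36 in other remodelling complexes (2.78%, where 0.451% of all genes were called lower), whose median was 0.10. Single calls were also made for the Wnt inhibitor Dkk1 (-2.17, adjusted p = 0.0143), the basement membrane collagen Col4a2 (-1.17, 0.0277), the p53 target Dram1 (-1.73, 0.0232), the antiviral gene Oas2 (-0.92, 0.0460) and the imprinted gene Magel2 (1.19, 0.0266). No gene was called in the lists for DNA replication and cell cycle, cholesterol synthesis, glycolysis and hypoxia, Hox genes, germline and meiosis, ribosomal proteins, histones, the integrated stress response or fibroblast feeders. Some of their members were called under other settings: Chac1, Trib3, Vegfa, Ccnd3 and Cdkn2b each in 6 of 21 alternatives. The stress response list had 31 of 40 genes below 0, as did 57.3% of all genes, and a median of -0.36. Its arrays did not overlap for 17 of those below and 1 of those above, where they did not for 53.4% of all genes. Chac1 had -1.52 ± 0.30 (adjusted p = 0.0819) and Trib3 -1.21 ± 0.24 (0.0831). Both genes stood higher with Ino80e siRNA than with NT, by 1.14 and 0.95. Vegfa, a hypoxia target, had -1.79 ± 0.35 (adjusted p = 0.0819).

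The probes of Bmp4, Lgals3 and Smarcd3 are shown as the stretches of transcript on which these calls rest. Each has 2 of 3 forward frames free of stop codons. They lie at mm7 chr14:41704207-41704266 (minus), chr14:42712515-42713331 (plus) and chr5:23633267-23633538 (minus); the last pair span more than 60 genomic bases, as a probe does that joins exons.
Bmp4 probe: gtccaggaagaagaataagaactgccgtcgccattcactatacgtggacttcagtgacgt
Lgals3 probe: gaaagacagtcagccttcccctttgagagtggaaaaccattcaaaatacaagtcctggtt
Smarcd3 probe: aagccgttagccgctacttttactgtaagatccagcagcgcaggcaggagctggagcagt

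**Figure D4:**
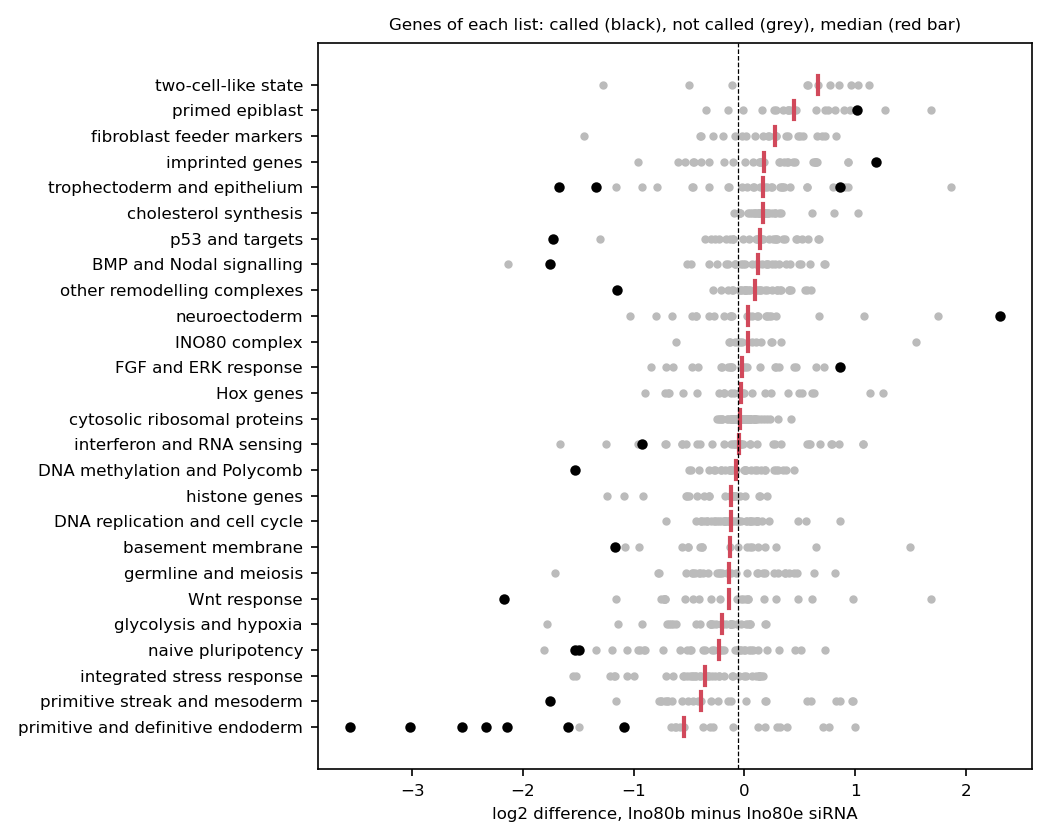
Log2 difference between Ino80b and Ino80e siRNA for each tested gene of the 26 gene lists; black points are called, grey points are not, red bars are list medians, and the dashed line is the median of all genes (-0.06). The endoderm list has the lowest median (-0.55) and 7 called genes, and the two-cell-like list has the highest median (0.67) with none called.

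Ino80 against Ino80c, which shares no array with this comparison but lies on the same slides in the same order, gave 217 called genes (1.09%; 28 or 0.14% higher, 189 or 0.947% lower), a split that the authors' deposited table turned to 575 higher and 279 lower. For the 90 genes lower in Ino80b, the Ino80 minus Ino80c difference was below 0 for 86 (95.6%), where 58% of all genes were below 0, and 31 of them were called lower there, where 0.947% of all genes were. Their median in that pair was -0.78. Tfec had -2.74 (adjusted p = 0.0143), Cyp4f14 -2.25 (0.00535) and Dkk1 -2.76 (0.00609). Of the 7 called endoderm genes, all 7 were below 0 in this pair and 5 were called: Cubn (-2.91, adjusted p = 0.0110), Pdgfra (-3.06, 0.00486), Sox7 (-2.05, 0.0170), Gata6 (-2.52, 0.00486) and Dab2 (-1.09, 0.0375). Srgn (-2.91, 0.0539) and Amn (-0.86, 0.0652) missed the threshold. Knockdown and slide cannot be told apart in either pair.

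The rises did not go with the other pair. For the 51 genes higher in Ino80b the Ino80 minus Ino80c median was -0.09, and 23 (45.1%) were above 0 too, as were 42% of all genes. Of the 51, 0 were called higher in that pair, where 0.14% of all genes were, so the 0 says little. In the opposite direction 5 were called lower, where 0.947% of all genes were. Akr1d1 (0.09), Kera (-0.24) and Itpr2 (-0.42) had small values there, and Nrcam had -1.70 (adjusted p = 0.0183).

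The contrast (Ino80b minus Ino80) minus (Ino80e minus Ino80c) takes each difference within a slide, so a slide effect that adds on the log2 scale cancels. It tests whether the Ino80b and Ino80e difference departs from that of the other pair, and it called 43 genes (0.216%; 40 or 0.201% higher, 3 or 0.015% lower); the authors' deposited table gave 93 higher and 47 lower, and normexp 111 and 30. Of the 51 higher genes 18 were among them, and of the 90 lower genes 1 was. The contrast contains the Ino80b and Ino80e difference by which those genes were chosen, from the same arrays. A call in both tests is therefore not separate support for that difference. Among the genes called in both tests were Fabp7 (3.09 ± 0.40, adjusted p = 0.0460), Itpr2 (2.65 ± 0.23, 0.0233) and Kynu (3.23 ± 0.31, 0.0268). Akr1d1 and Kera were called as well (adjusted p = 0.0268 each), but their signal was not well above background with Ino80e siRNA, so no size is read from them. They also entered the test only through the Ino80b arrays, where they are high, so these calls are not read as support. For Fabp7 and Kynu the Ino80c arrays were as high as the Ino80b arrays, so their values hold a difference between Ino80c and Ino80e as well. Within the Ino80b slide, Akr1d1 was at -8.13 and -8.38 with Ino80 siRNA.

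None of the 12 largest named falls passed it. Slc11a1 had -2.58 (adjusted p = 0.0834) and Naip6 -1.84 (0.380). Bmp4 had -1.48 (0.0961), whereas Cubn (-0.11), Tfec (-0.35) and Cyp4f14 (-0.40) lay near 0. The slide-free count was fragile: leaving out any 1 of the 10 arrays brought it to between 0 and 18.

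**Figure D5:**
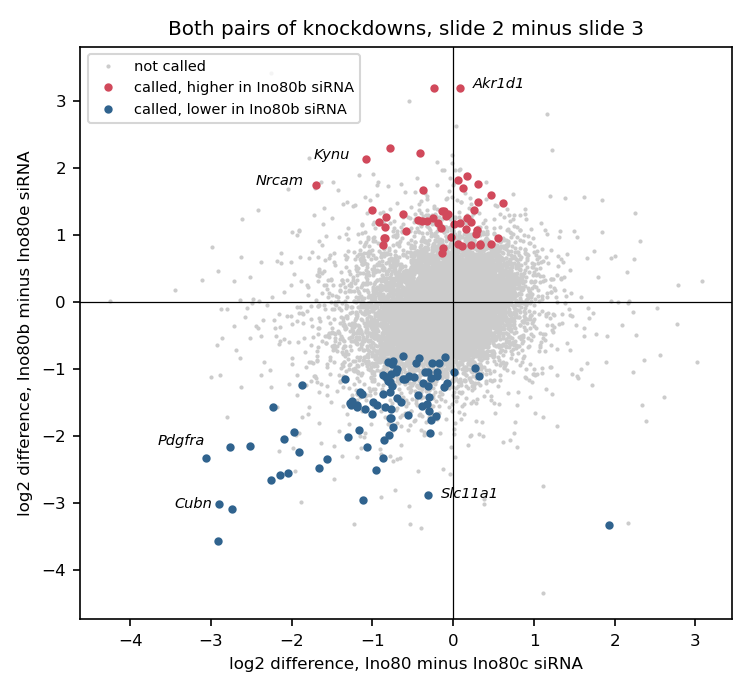
Log2 difference between Ino80b and Ino80e siRNA (vertical axis) against that between Ino80 and Ino80c siRNA (horizontal axis) for the 19949 genes tested; both are slide 2 minus slide 3, and no array is shared. Of the blue points (90 genes called lower) 86 lie left of 0, whereas the red points (51 called higher) lie on both sides, 23 right and 28 left.

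The upstream sequences of the called genes were looked at in RefSeq windows of 250 bases before the transcription start (GRCm38.p6), which were found for 68 of the 90 lower genes, 39 of the 51 higher genes and 12765 of all tested genes. The median number of CG dinucleotides per window was 8.50 for lower genes, 12.5 for higher genes and 14 for all; under 5 were found in 35.3%, 23.1% and 18.1%. The GATA-factor motif AGATAA, read on both strands, was found in 5 of the 68 lower genes (7.4%), 1 of the 39 higher genes (2.6%) and 8.2% of the tested genes. The Yy1 core AAGATGG, which does not overlap it, was found in 2 lower genes (2.9%), 6 higher genes (15.4%) and 5.0% of the tested genes. These are descriptions of letters in a window and not of binding.

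Windows of 3 named genes are printed, the motif in capitals, because they hold one of the motifs: Cyp4f14 (chr17:32917357-32917606, minus strand, with the Yy1 core on the opposite strand and 3 CG), Arsj (chr3:126363602-126363851, plus strand, with the Yy1 core and 11 CG) and Naip6 (chr13:100316617-100316866, minus strand, with the GATA motif and 0 CG). Cyp4f14 has other windows: those that overlap the printed one hold the same site, and the one at chr17:32917088-32917337 holds neither motif and 0 CG. The window of Cubn (chr2:13491877-13492126, minus strand, 2 CG) holds neither motif and is shown as an endoderm gene with few CG.
Cyp4f14 window: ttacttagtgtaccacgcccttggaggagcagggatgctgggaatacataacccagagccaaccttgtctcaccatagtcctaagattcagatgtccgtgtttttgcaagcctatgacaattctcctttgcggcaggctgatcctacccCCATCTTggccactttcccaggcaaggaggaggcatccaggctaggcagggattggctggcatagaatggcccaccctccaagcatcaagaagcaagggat
Arsj window: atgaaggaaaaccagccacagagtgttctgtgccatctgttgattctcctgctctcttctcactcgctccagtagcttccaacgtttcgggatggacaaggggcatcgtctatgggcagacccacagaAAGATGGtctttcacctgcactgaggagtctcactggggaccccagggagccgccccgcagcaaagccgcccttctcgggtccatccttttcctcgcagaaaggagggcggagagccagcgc
Naip6 window: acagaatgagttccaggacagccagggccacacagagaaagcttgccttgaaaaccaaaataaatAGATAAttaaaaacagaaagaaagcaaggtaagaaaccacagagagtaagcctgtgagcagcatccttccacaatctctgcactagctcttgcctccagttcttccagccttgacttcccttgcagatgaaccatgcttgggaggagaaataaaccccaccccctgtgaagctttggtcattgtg
Cubn window: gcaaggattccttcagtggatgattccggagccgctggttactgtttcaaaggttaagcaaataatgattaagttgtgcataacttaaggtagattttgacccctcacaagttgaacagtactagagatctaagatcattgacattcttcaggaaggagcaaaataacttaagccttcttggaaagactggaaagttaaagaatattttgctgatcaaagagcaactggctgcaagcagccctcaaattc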

How the data were processed

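Agilent 4x44K arrays were read in 1 colour, green; the dye named in the labels is Cy5. Feature Extraction 9.5.3.1 quantified the spots per the file headers, and the deposited intensity used is its processed signal, background-subtracted and not scaled between arrays. The table of values that the authors deposited is on a log2 scale; each column equalled the log2 mean signal of its array plus 1 constant whose origin, and so the scaling between arrays, stays unknown. Column medians of that table were 6.76 to 6.87, and genes were not centred.

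Control and flagged spots were left out, spots of a probe averaged (41143 probes), log2 taken and each array's 75th percentile subtracted. A probe was kept where any group had both of its arrays well above background, with the brightest probe per gene (19949 genes). Symbols were updated by accession or synonym through RefSeq GRCm38.p6 (22951 probes by accession, 6659 by current symbol, 3109 by synonym, 8455 kept the array's name). A gene not well above background on any array of a group has only a bound, taken on the processed signal. It is the bright group's mean over the dim group's higher of its own signal and the lowest signal well above background. One limma 3.58.1 fit (lmFit, eBayes, R 4.3.3) over all 10 arrays gave every contrast, two-sided, with Benjamini-Hochberg adjustment over all genes. With 5 residual degrees of freedom, p-values measure the spread between samples called biological replicates.

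On data simulated for Ino80b against Ino80e over 19949 genes, 41.4% of 2-fold and 69.3% of 4-fold changes were called, and 10 of 19749 unchanged genes. The simulation gave all groups the same mean per gene apart from changes in Ino80b, with independent normal noise and no slide effect. Its rates therefore do not cover differences between slides or between the other groups.

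Named were the INO80 genes, the 12 largest called rises and falls, up to 4 called genes (or 2 uncalled) per list, and the 5 genes with the largest Ino80b minus Ino80e difference among those called in both that and the slide-free contrast; Gata6, Amn, Dab2, Sox17, Gata4, Foxa2, Tbx3, Esrrb, Klf4, Nanog, Pou5f1, Sox2, Pou3f1, Otx2 and Wnt8a were added after their values were seen. Comparisons, members and lists were chosen with earlier results of these data known. Alternatives covered background correction, normalization, the authors' table, the filter, the probe rule, the arrays fitted, weights, the prior, a replicate block and each array left out.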

Additional observations from a re-analysis of the deposited data

Results flagged for a closer look

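These genes passed the test of whether the Ino80b and Ino80e difference departs from the Ino80 and Ino80c difference on the same 2 slides (limma, Benjamini-Hochberg adjusted p under 0.05). The test contains the Ino80b and Ino80e difference itself, so passing it is not separate support for that difference. Positive values were found for Nrcam (3.45), Kynu (3.23), Fabp7 (3.09), Itpr2 (2.65) and Fgfr2 (1.73), each by the gene's brightest probe. With the mean over probes, the Ino80b minus Ino80e differences of Nrcam (1.37), Itpr2 (0.60) and Fgfr2 (0.83) were not called. The Itpr2 probes ran from -0.99 to 2.23, so its value does not hold for the gene as a whole. Kera (3.44) and Akr1d1 (3.11) passed too, but these are measured values against signal not well above background with Ino80e siRNA, and no size or rank is read from them. Both entered the test only through the Ino80b arrays, where they are high, so their passing is not read as support. For Nrcam and Fgfr2 the Ino80 minus Ino80c difference had the opposite sign (-1.70 and -0.87) to the Ino80b minus Ino80e difference (1.76 and 0.86). Ino80 (1.71) and Ino80c (-2.61) passed as well; each is the target of an siRNA in the second pair, and their differences there were -1.38 and 2.52.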

How the results depend on the processing

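All 141 called genes kept their direction under every alternative that tested them (126 under the strictest filter), which non-overlapping arrays fix where an array is left out or the 4 arrays are fitted alone. Calls for Ino80b against Ino80e, slide-free and Ino80 against Ino80c, from 141, 43 and 217, became 464, 141 and 774 with normexp; 412, 140 and 854 in the authors' deposited table; 44, 0 and 92 with no filter on dim probes; 307, 89 and 357 with probes well above background on all arrays; and 363, 116 and 458 with a trended robust prior. Median scaling gave 87 and 105 for the 2 pairs; array weights gave 725 and 84 for the first and second; the arrays compared alone gave 0 and 18 for the first and second, and 0 endoderm genes called lower in place of 7. With no filter, the slide-free contrast had 0 calls by limma.

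Leaving out 1 array at a time gave 0 to 136 calls, 0 to 18 slide-free, 7 to 201 for Ino80 against Ino80c and 0 to 6 endoderm genes; a lone array is then assumed to vary like the other groups. Either Ino80c array left out gave 46.

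The Ino80e difference passed with normexp (1.56), the authors' table (1.61), and, at 1.55, with the strict filter, array weights, the trended prior and the replicate block. The replicate block gave 840, 246 and 738 calls; labels do not say that a number marks a shared batch, and deviations of same-numbered arrays correlated at 0.00131 to 0.326 (0.326 for Ino80b with Ino80e). Uncalled complex genes near 0 changed sign. Averaging probes gave Ino80c 0.12 and Actl6a 0.011. Median scaling gave Actr8 0.0032, Ruvbl1 0.045 and Ruvbl2 0.020; quantile normalization gave Ruvbl1 0.044 and Ruvbl2 0.018; the authors' table gave Actr8 0.017, Ruvbl1 0.026 and Ruvbl2 0.021. With 1 array left out the ranges were -0.19 to 0.010 (Ino80c), -0.14 to 0.017 (Actr8), -0.058 to 0.022 (Ruvbl1), -0.099 to 0.013 (Ruvbl2), -0.023 to 0.082 (Tfpt), -0.029 to 0.24 (Yy1) and -0.027 to 0.16 (Actb). The causes were not tested. Of 769 values of the 37 named called genes, 489 stayed called, 280 were no longer called and 0 changed sign; of 734 values of 35 named uncalled genes, 655 stayed uncalled, 61 were called and 18 changed sign. Genes dim in a group have only a bound there.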

Other observations

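The genes below were all called in Ino80b against Ino80e (limma, adjusted p under 0.05), were picked after their values were seen and are given as log2 differences. Among the genes called lower with Ino80b siRNA than with Ino80e siRNA (0.451% of all genes tested) were 4 symbols of the Klk1b kallikrein cluster. They were Klk1b5 (-1.43), Klk1b4 (-1.04), Klk1b8 (-0.91) and Klk1b3 (-0.81). Members of the cluster that were not called were not counted, so nothing is read about the cluster as a whole. The Klk1b genes are near-identical copies, so their probes may read the same transcript. Other lower genes were the oncostatin M receptor Osmr (-1.70), its ligand Osm (-0.84), Stat5a (-0.91) and the TNF receptor Tnfrsf1a (-1.05). Inhbb, an activin subunit, had -1.73, and the BMP-binding protein Bmper had -2.04. Among the rises were the Notch-related factor Hes6 (1.27), the guidance cue Sema3e (1.26), the mechanosensitive channel Piezo2 (1.27) and the phosphodiesterase Pde4b (1.07).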
